A study of Mus musculus with 6 samples.

Results

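The miRNAs described here are those of blood vessels and red blood cells that were bound to Argonaute (Ago) proteins in mouse brain. They were chosen by name. The list held 9 mature miRNAs, 2 of endothelial cells (mmu-miR-126a-3p and mmu-miR-126a-5p), 2 of mural cells, that is pericytes and smooth muscle (mmu-miR-143-3p and mmu-miR-145a-5p), and 5 of red blood cells (mmu-miR-451a, mmu-miR-144-3p, mmu-miR-144-5p, mmu-miR-486a-5p and mmu-miR-486b-5p). The last 2 have the same mature sequence and share a joint label in the read table, so the 9 names were 8 labels of the 782 mature miRNA labels with any read, and 372 of the 65087 unique sequences. All 8 labels had reads in all 6 samples and a mean of at least 1 RPM (reads per 1000000 reads of a sample), the filter that kept 689 labels for testing.

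The study asked which short RNAs sit in the RNA-induced silencing complex in mouse models of Alzheimer's disease, and how toxic their seeds are. The samples were 3 brains of control mice (WT) and 3 of mice that carry a fragment of human tau, tau45-230, driven by the neuronal Thy 1.2 promoter (Tau tg). All mice were males 3 months old, and the transgene was on a C57BL/6J background. The source names and the study's results give hippocampus for these mice, while the protocol describes pooled cortex and hippocampus. Ago1 to Ago4 were pulled down with a GW182 peptide before the RNA was sequenced. Size markers of 19 to 35 nt were run beside it on the gel, and the deposited reads also include shorter ones, such as miR-451a reads of 18 nt. Whether the vessels were cleared of blood is not given in the sources used here. In bulk tissue, fewer cells of a type and less RNA per cell cannot be told apart.

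An mRNA is repressed by a miRNA through its seed, the bases behind its first one. MiR-126a comes from a hairpin inside Egfl7 and is the classical endothelial miRNA, needed for vessel integrity and for the response to VEGF. MiR-143 and miR-145a are made from a common transcript and keep smooth muscle cells contractile. MiR-144 and miR-451a also share a transcript, which GATA1 switches on in erythroid cells, and miR-486 is read from an intron of Ank1 and is abundant in red blood cells. MiR-451a is the exception among miRNAs, since its hairpin is too short for Dicer. Ago2 itself cuts the hairpin and the 3′ end is then trimmed back, so that the read length of Ago-bound miR-451a follows that trimming.

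The 4 members with a mature entry in the RefSeq table used here are shown first, because their seeds and their 3′ ends are what the results on 5′ ends and lengths refer to. The capitals mark the seed, bases 2 to 8.
mmu-miR-126a-3p: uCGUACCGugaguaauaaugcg
mmu-miR-144-5p: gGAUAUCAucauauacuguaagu
mmu-miR-144-3p: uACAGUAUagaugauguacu
mmu-miR-451a: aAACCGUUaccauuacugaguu
No seed is shared between these 4. On build GRCm38.p6 the Mir126a hairpin lies at chr2:26591357-26591429 on the plus strand. GENCODE M21 lists Egfl7 on the same strand, with an exon of at least 1 of its transcripts over the hairpin, as well as Gm20532 on the same strand with no exon there and Mir126b on the opposite strand. Mir144 is at chr11:78073005-78073070 on the plus strand with no other gene over it, and Mir451a is at chr11:78073170-78073241 on the same strand, 99 bases further, with Mir451b opposite.

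Library depth, counted as reads kept in the deposited values, ran from 998248 reads in WT 3 to 6879551 in Tau tg 1. MiRNAs made up 82.7 to 92.4% of the kept reads. The deposited RPM of a sample summed to between 915719 (WT 3) and 978886 (Tau tg 1), so some of the reads used for scaling were not among them. A level of 3 reads corresponded to 2.75 RPM in the shallowest library and to 0.427 RPM in the deepest. The neuronal miRNAs used to check the tissue (miR-124-3p, miR-9-5p, miR-128-3p and miR-132-3p) summed to between 142565 and 165235 RPM in every sample, but singly they were less even. MiR-124-3p ran from 47769 to 90279 RPM and miR-128-3p from 14221 (WT 1) to 42415 RPM (WT 3) over the 6 samples. MiR-9-5p was at 29427 to 37677 RPM in WT brains and at 44565 to 48005 RPM in Tau tg, which did not overlap (adjusted p = 0.896 by limma). All 8 members together took 1.23 to 1.85% of the miRNA RPM. They are thus a small fraction of Ago-bound miRNA in these brains.

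The most abundant member was mmu-miR-126a-3p, rank 33 of all miRNAs. Its level was 7762, 6003 and 2369 RPM for WT replicates 1, 2 and 3, and 8383, 4478 and 7337 RPM for Tau tg replicates 1, 2 and 3. The other arm of the hairpin, mmu-miR-126a-5p, stood at 2164, 1830 and 1916 RPM in WT brains and at 2192, 1747 and 1802 RPM in Tau tg. The endothelial pair therefore differed in spread. The 5p arm stayed within 1.25-fold over all 6 samples, whereas the 3p arm varied 3.54-fold, mostly through its low level in WT 3.

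The mural members were of similar abundance. For mmu-miR-143-3p the levels were 3386, 2052 and 2294 RPM in WT brains and 3237, 3027 and 1981 RPM in Tau tg. For mmu-miR-145a-5p they were 1619, 1540 and 1611 RPM in WT brains and 1585, 1774 and 990 RPM in Tau tg. The 3 WT samples were nearly equal for miR-145a-5p, and Tau tg 3 was the one sample below the range of the others.

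The red blood cell members were lower. The erythroid miRNA mmu-miR-451a was at 274, 632 and 814 RPM in WT brains and at 612, 266 and 695 RPM in Tau tg, so 1 sample of each group, WT 1 and Tau tg 2, was low. Its cluster partner mmu-miR-144-3p was at 282, 438 and 151 RPM in WT brains and at 518, 208 and 305 RPM in Tau tg. The joint label of mmu-miR-486a-5p and mmu-miR-486b-5p was at 173, 117 and 129 RPM in WT brains and at 164, 306 and 125.6 RPM in Tau tg. Its highest sample, Tau tg 2, was the lowest for miR-451a. The passenger strand mmu-miR-144-5p was near the detection limit with 2.81, 0.678 and 8.26 RPM in WT brains and 6.26, 0.836 and 2.05 RPM in Tau tg. In WT 2 and in Tau tg 2 it rested on 1 read, below the level of 3 reads.

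**Figure D1:**
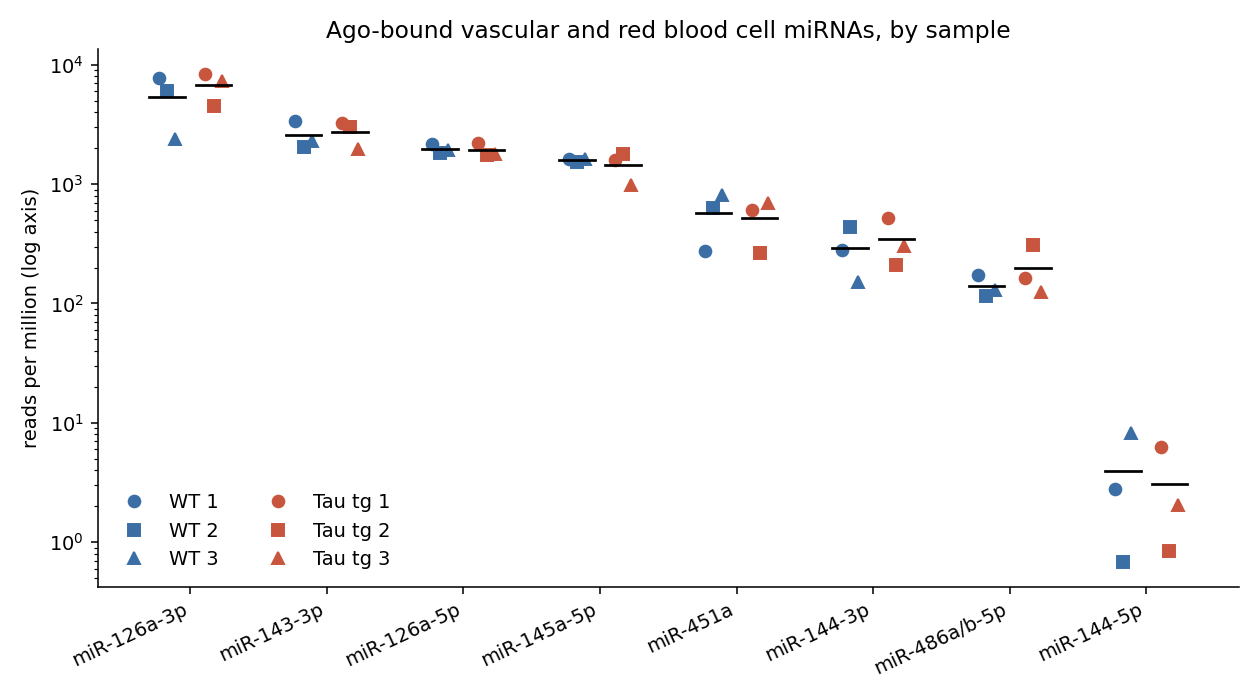
RPM (log axis) of the 8 member labels in each of the 6 samples, ordered by mean. Points are samples, blue WT and red Tau tg, and black bars are group means. The groups overlap for every member, and the order from miR-126a-3p down to miR-144-5p spans 6055 to 3.48 RPM.

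By the mean over the 6 samples the order was miR-126a-3p (6055 RPM), miR-143-3p (2663 RPM), miR-126a-5p (1942 RPM), miR-145a-5p (1520 RPM), miR-451a (549 RPM), miR-144-3p (317 RPM), miR-486a/b-5p (169 RPM) and miR-144-5p (3.48 RPM). Only 2 neighbouring pairs had ranges that did not overlap, miR-145a-5p over miR-451a and miR-486a/b-5p over miR-144-5p. Within samples the order was firmer. Each higher neighbour exceeded the lower one in 6 of 6 samples, except for miR-126a-5p over miR-145a-5p, miR-451a over miR-144-3p and miR-144-3p over miR-486a/b-5p, which held in 5 of 6. Vascular members were thus above the red blood cell members in these pulldowns.

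No member passed the test between Tau tg and WT. In a limma fit of log2(RPM + 1) over the 689 miRNAs, 0 of the 8 labels had an unadjusted p under 0.05, where 25 of all miRNAs (3.63%) did, and 0 had an adjusted p under 0.05, as for the whole table (0% of 689). edgeR on the reads recovered from the RPM steps also called 0 miRNAs after adjustment (28 at an unadjusted p under 0.05), and DESeq2 called 5 (37 unadjusted), none of them a member. Of the 8 labels 4 were higher and 4 lower in Tau tg, against 63.6% higher among all miRNAs. Their median log2 fold change was 0.02 against 0.25 for all miRNAs, and 3 of the 8 lay above the latter. The WT and Tau tg samples overlapped for all 8, while 9.53% of the 472 miRNAs seen in all 6 samples showed no overlap.

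The endothelial miR-126a-3p averaged 5378 ± 2750 RPM (SD, n = 3) in WT brains and 6733 ± 2021 RPM (SD, n = 3) in Tau tg. The log2 fold change was 0.44 ± 0.41 (SE), with a 95% interval of -0.43 to 1.31 and an adjusted p of 0.896 by limma. This sign was decided by 1 library, since without WT 3 the log2 fold change was -0.07. The 5p arm averaged 1970 ± 173 against 1914 ± 242 RPM, a log2 fold change of -0.05 with a 95% interval of -0.67 to 0.58. That interval was among the narrowest of the members, together with that of the mural miRNAs.

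Among the mural members miR-143-3p averaged 2577 ± 710 RPM in WT brains and 2748 ± 673 RPM in Tau tg (log2 fold change 0.09 ± 0.33). MiR-145a-5p averaged 1590 ± 43.4 against 1450 ± 409 RPM (log2 fold change -0.18 ± 0.32). The 95% intervals, -0.60 to 0.79 and -0.86 to 0.51, still allowed changes of over 1.5-fold in at least 1 direction. The adjusted p-values by limma were 0.966 and 0.938.

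The red blood cell members had wider errors. MiR-451a averaged 573 ± 275 RPM in WT brains and 524 ± 228 RPM in Tau tg, with a log2 fold change of -0.10 and a 95% interval of -1.09 to 0.88. MiR-144-3p averaged 291 ± 143.7 against 344 ± 158 RPM (0.27, interval -0.74 to 1.27), and miR-486a/b-5p averaged 140 ± 29.5 against 199 ± 95.04 RPM (0.42, interval -0.60 to 1.45). The passenger strand miR-144-5p gave -0.18 with an interval of -2.78 to 2.42, so that a change in it was not detectable at this depth. Leaving out Tau tg 2 turned miR-451a to 0.33, and leaving out WT 3 turned miR-144-3p to -0.14. Tau tg 2 also carried most of the miR-486a/b-5p value, which was 0.06 without it.

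**Figure D2:**
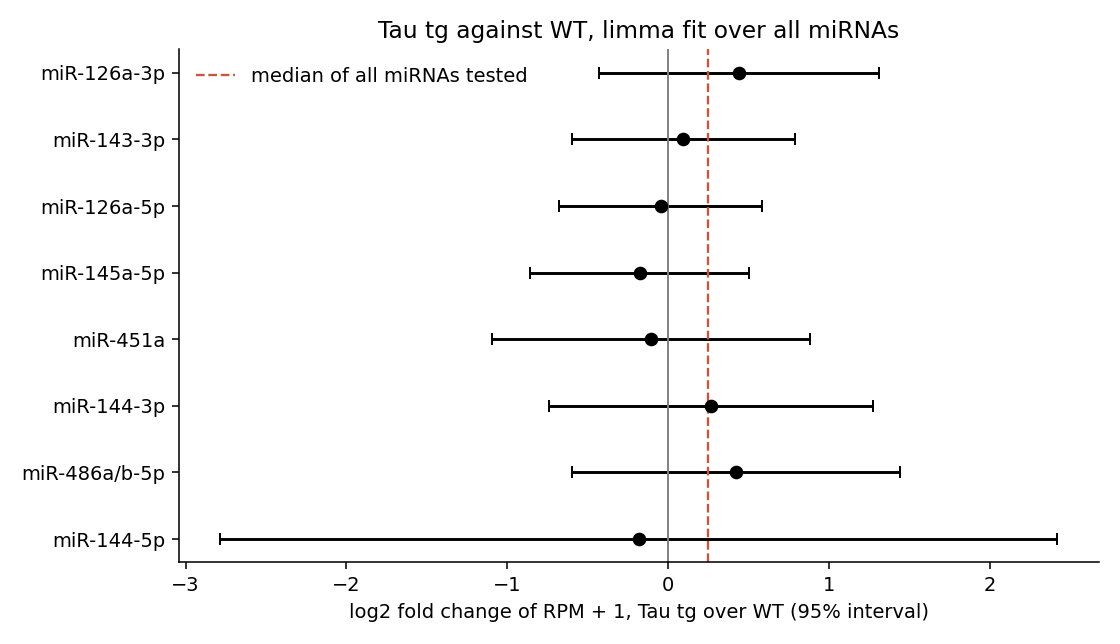
Log2 fold change of RPM + 1, Tau tg over WT, for the 8 member labels with 95% intervals from the limma fit (n = 3 per group). The grey line is no change and the dashed line the median of all 689 miRNAs, 0.25. Every interval includes both lines.

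Summed by cell class, the endothelial members reached 7348 ± 2851 RPM in WT brains and 8646 ± 2216 RPM in Tau tg (SD, n = 3 each). Mural members summed to 4168 ± 742 and 4198 ± 1063 RPM. Red blood cell members summed to 1007 ± 242 and 1070 ± 264 RPM. The difference between the groups was below the SD of either group in each class. The endothelial difference of 1298 RPM became -233 RPM without WT 3.

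In WT 3 miR-126a-3p was low while the other arm was not. The ratio of the 3p to the 5p arm was 3.59, 3.28 and 1.24 for WT replicates 1, 2 and 3, and 3.82, 2.56 and 4.07 for Tau tg replicates 1, 2 and 3. WT 3 was therefore the one sample in which both arms were nearly equal. Its miR-126a-3p rested on 2583 reads and was 1.48 lower on the log2 scale than the mean of the other 5 samples, a position as low or lower in 4.35% of the 276 miRNAs with a mean of at least 100 RPM. Its miR-126a-5p differed from the mean of the others by -0.02. Among 51 hairpins with both arms at a mean of 100 RPM or more, 3, miR-126a included, had an arm ratio in WT 3 shifted by as much in either direction. The range of the miR-126a ratio over the samples, 1.72 on the log2 scale, was close to the median range of those hairpins, 1.61. WT 3 was also the library with the fewest reads, and the part of depth was not tested.

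MiR-126a-3p reads had 2 starts. Its 4 commonest sequences in the table, with the 6mer seed (bases 2 to 7) in capitals, show the shift.
sequence 1: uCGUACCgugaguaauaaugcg
sequence 2: cGUACCGugaguaauaaugcg
sequence 3: cGUACCGugaguaauaaugcgu
sequence 4: uCGUACCgugaguaauaaugc
Sequences 1 and 4 begin at the RefSeq start and held 34.7 and 7.05% of the miR-126a-3p RPM. Sequences 2 and 3 begin 1 base later and held 21.7 and 9.77%. Over all its sequences, the seed CGUACC made up 58.6, 56.3 and 51.2% in WT brains and 58.2, 58.5 and 58.6% in Tau tg, and GUACCG made up 39.3, 41.9 and 44.6% in WT brains and 39.3, 40.0 and 39.3% in Tau tg. WT 3 again lay at the edge, with the smallest share of the annotated start. The shares did not differ between the groups beyond their spread (exact two-sided permutation p = 0.4 for either seed, smallest possible p 0.1). Reads with the seed GUACCG averaged 2433 RPM over the 6 samples, above the mean level of miR-451a. The table assigns each seed a viability, the average percent of viable cells of 3 mouse cell lines given a short RNA with that seed, in which a low value means a toxic seed. It was 38.4 for CGUACC and 60.9 for GUACCG.

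**Figure D3:**
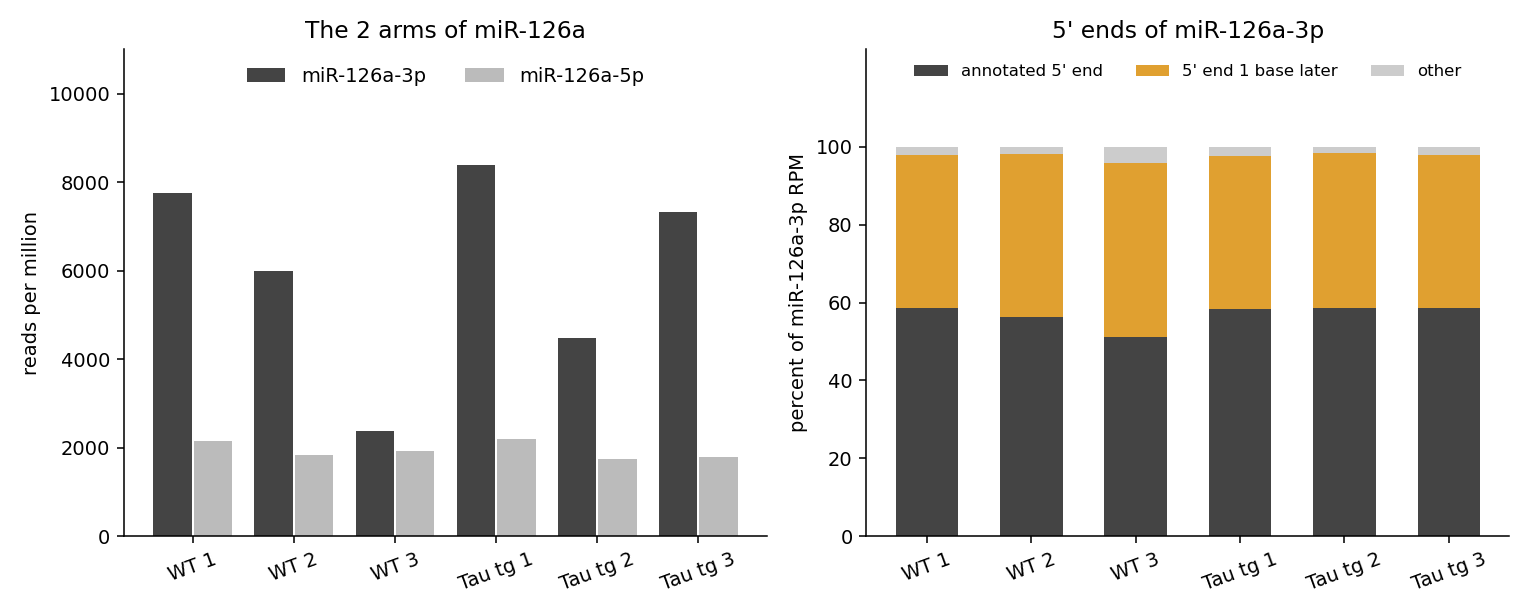
Left, RPM of miR-126a-3p and miR-126a-5p in each sample. Right, percent of the miR-126a-3p RPM that starts at the annotated 5′ end, 1 base later or elsewhere. The arms are close only in WT 3, and the later start makes up 39.3 to 44.6% in the 6 samples.

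The other members began almost always at one base, with exceptions in single libraries. The leading seed held 95.4 to 98.0% of miR-126a-5p (AUUAUU, viability 87.0), 96.9 to 99.2% of miR-143-3p (viability 56.2), 96.9 to 98.4% of miR-145a-5p (viability 49.6) and 100% of miR-486a/b-5p (CCUGUA, viability 67.1). The leading seed of miR-144-5p, GAUAUC, had a viability of 36.6, the lowest among the leading seeds of the members, and that of miR-126a-5p the highest.

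For miR-144-3p the leading seed was ACAGUA (viability 86.2). Reads that began 1 base earlier carried UACAGU (viability 61.1), for example
mmu-miR-144-3p, earlier start: cUACAGUauagaugauguacu
These made up 1.49, 2.16 and 20.6% in WT brains and 8.11, 26.5 and 4.30% in Tau tg. WT 3 (34 of 165 reads, 95% Wilson interval 15.1 to 27.4%) and Tau tg 2 (66 of 249 reads, 21.4 to 32.3%) stood apart, 1 in each group, and the difference between the groups was within their spread (exact permutation p = 0.5). For miR-144-5p in WT 3, 8 of 9 reads began 1 base later (seed AUAUCA, viability 92.6), which no read of the other 5 samples did. Such intervals cover counting error only.

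MiR-451a carried the seed AACCGU (viability 58.3) in 84.0 to 99.4% of its RPM. A shorter form began 4 bases inside the mature sequence, which gave it the seed GUUACC with a viability of 18.6, the lowest value among the member forms listed here.
mmu-miR-451a, RefSeq start: aAACCGUuaccauuacugaguuu
mmu-miR-451a, inner start: cGUUACCauuacugaguuu
The seed GUUACC was at 0, 0.537 and 3.16% in WT brains and at 1.63, 16.0 and 2.59% in Tau tg. Only the sample Tau tg 2 had a large share (51 of 318 reads, 95% Wilson interval 12.4 to 20.5%). It was also 1 of the 2 samples with the least miR-451a, and the difference between the groups was within their spread (exact permutation p = 0.3).

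The lengths of miR-451a spread over several bases around one peak. The commonest read was the 23 nt sequence printed above for the RefSeq start, which is 1 base longer than the RefSeq entry. Reads of 23 nt made up 50.7, 39.9 and 42.4% in WT brains and 48.0, 45.6 and 54.8% in Tau tg, and those of 22 nt made up 20.5 to 35.1% in the 6 samples. Longer reads of 24 nt or more took 7.55 to 19.1%, and no read that matched the hairpin went past base 26 counted from the RefSeq start. The mean length was 22.6, 22.4 and 22.7 nt in WT brains and 22.7, 22.2 and 22.8 nt in Tau tg, a difference of 0.00 nt between the group means (exact permutation p = 1). This difference was below the SD over the samples, 0.14 nt in WT brains and 0.33 nt in Tau tg. The mean took in reads of every start, also those with the inner start. Over reads with the leading 5′ end only, Tau tg minus WT was 0.17 nt (exact permutation p = 0.3). A smaller amount of RNA with no miRNA label, 7.36 to 42.7 RPM, also matched the Mir451a hairpin within its first 26 bases from the RefSeq start.

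**Figure D4:**
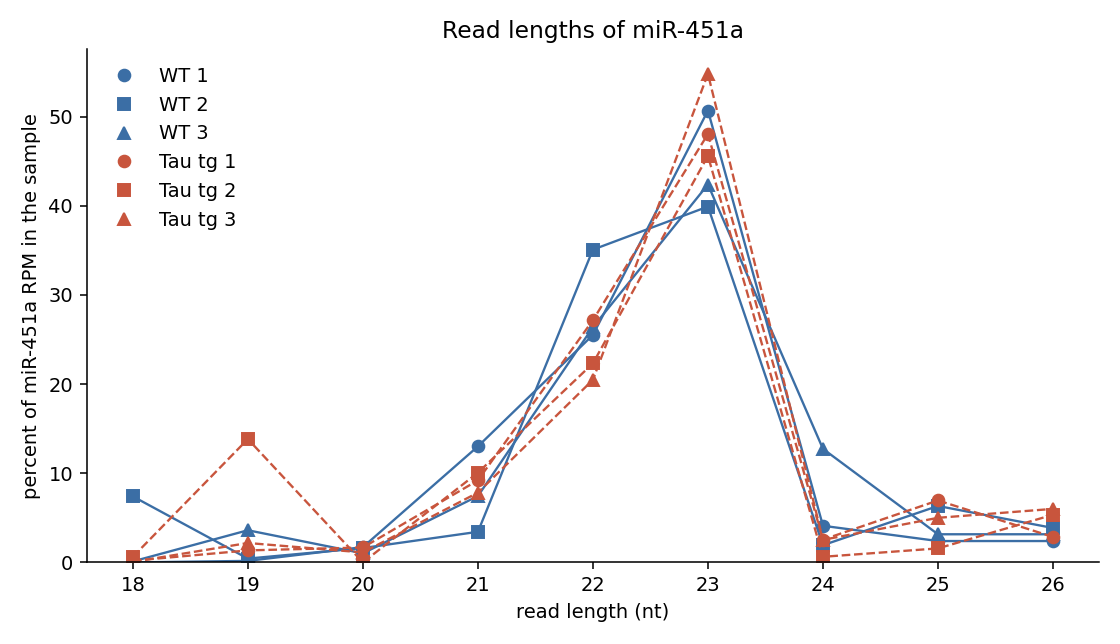
Percent of the miR-451a RPM by read length (nt) in each sample, blue solid lines WT and red dashed lines Tau tg. All 6 samples peak at 23 nt, with single exceptions at 19 nt in Tau tg 2, 18 nt in WT 2 and 24 nt in WT 3.

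The last bases of the reads were compared with the RefSeq hairpins. An added base that equals the next base of the hairpin counts as a match, as a U behind the RefSeq end of miR-451a does. Of the miR-451a RPM, 98.1 to 100% matched the hairpin to the last base. For miR-144-3p this was 96.0 to 100%. In contrast, 64.0 to 76.4% of miR-126a-3p matched to the end, 12.3 to 15.4% carried a tail of 1 to 3 A and 9.45 to 16.96% a tail of U. MiR-126a-5p was similar, with 69.1 to 80.2% exact. Both arms of miR-126a therefore carried unmatched A or U at their ends more often than miR-451a and miR-144-3p did, in all 6 samples. The share of U tails on miR-126a-5p was 14.6, 11.4 and 9.57% in WT brains and 15.5, 16.4 and 16.0% in Tau tg. Unmatched tails other than A or U on the same arm went the other way, at 1.06, 1.70 and 1.68% in WT brains and at 0.558, 0.383 and 0.499% in Tau tg. These were the 2 of the 20 shares examined in which the groups did not overlap. The exact permutation p of 0.1 of each is the smallest that 3 against 3 samples allow, and the adjusted p over the 20 was 1.

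MiR-486a/b-5p also varied in length between libraries. Reads of 20 nt made up 26.3% in WT 1 and 18.6% in Tau tg 2, and at most 0.582% in the other 4 samples. WT 1 and Tau tg 2 were the same samples in which miR-451a was low. The 21 nt form made up 24.1 to 53.5% over the 6 samples, and the 22 nt form 11.4 to 46.8%.

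Ratios within a sample depend less on its total, so 5 of them were compared between the groups. Each was a difference of log2(RPM + 1), so the added 1 RPM weighs on low levels. The log2 ratio of miR-126a-5p to miR-126a-3p was -1.29 ± 0.85 (SD, n = 3) in WT brains and -1.77 ± 0.36 in Tau tg (exact permutation p = 0.5). That of miR-143-3p to miR-145a-5p was 0.66 ± 0.35 and 0.93 ± 0.14 (exact permutation p = 0.4), and that of miR-144-5p to miR-144-3p was -6.10 ± 1.999 and -6.55 ± 0.35 (exact permutation p = 0.8). The latter is held up by the added 1 RPM, as miR-144-5p rested on 1 read in WT 2 and in Tau tg 2. Red blood cell over endothelial, read as miR-451a to miR-126a-3p, was -3.20 ± 1.64 and -3.75 ± 0.34 (exact permutation p = 0.7). The ratio of miR-144-3p to miR-451a was -0.97 ± 1.29 and -0.59 ± 0.52 (exact permutation p = 0.8). All 5 had a permutation p of 0.8 after Benjamini-Hochberg adjustment, and none differed beyond the spread between the samples.

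Members of 1 cell class did not move together closely from sample to sample. Over the 6 samples, both arms of miR-126a had a Pearson r of 0.41 and a Spearman rho of 0.60 (exact permutation p = 0.429 and 0.242). Without the 2 samples farthest from the median of miR-126a-3p, r was 0.76. The mural pair miR-143-3p and miR-145a-5p gave r = 0.63 and rho = 0.71 (exact permutation p = 0.0708 and 0.136, adjusted 0.213 and 0.408), and 0.54 without its 2 farthest samples. For miR-451a and miR-144-3p, hairpins of a common transcript, r was 0.12 and rho -0.09 (exact permutation p = 0.817 and 0.919). Without WT 1 and Tau tg 2, its 2 farthest samples, r was -0.999 over the 4 samples left. The level of miR-451a was 0.968 times that of miR-144-3p in WT 1 and 5.38 times in WT 3.

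MiR-451a and miR-486a/b-5p, both abundant in red blood cells, went in opposite directions with r = -0.81 and rho = -0.77 (exact permutation p = 0.0167 and 0.103). Adjusted over the 6 pairs examined these were 0.1 and 0.408. The relation rests on WT 1 and Tau tg 2, since r was -0.33 without them. MiR-126a-3p with miR-143-3p gave r = 0.28 and rho = 0.43 (exact permutation p = 0.647 and 0.419), and with miR-451a r = -0.25 and rho = -0.31 (exact permutation p = 0.7 and 0.564). The red blood cell members thus gave no common reading of blood content over these samples.

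The level of miR-451a was lowest in the 2 samples with the least miR-448-3p. This is a miRNA of the choroid plexus, the folded epithelium over a bed of vessels in the brain ventricles. The choroid plexus miRNA miR-448-3p was at 0.468 RPM in the sample WT 1 and at 0.836 RPM in Tau tg 2, 1 read each and below the level of 3 reads. In WT 2, WT 3, Tau tg 1 and Tau tg 3 it was at 28.5, 89.0, 312 and 120 RPM. The other marker of the list, miR-204-5p, was at 1788, 1892 and 4824 RPM in WT brains and at 8110, 1953 and 3695 RPM in Tau tg. Both markers of 2 were thus low in WT 1 and Tau tg 2, and miR-204-5p was low in WT 2 too, where miR-451a was not. Tau tg 1 had the most of both markers but not the most miR-451a. The part of choroid plexus RNA in the level of miR-451a was not tested.

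**Figure D5:**
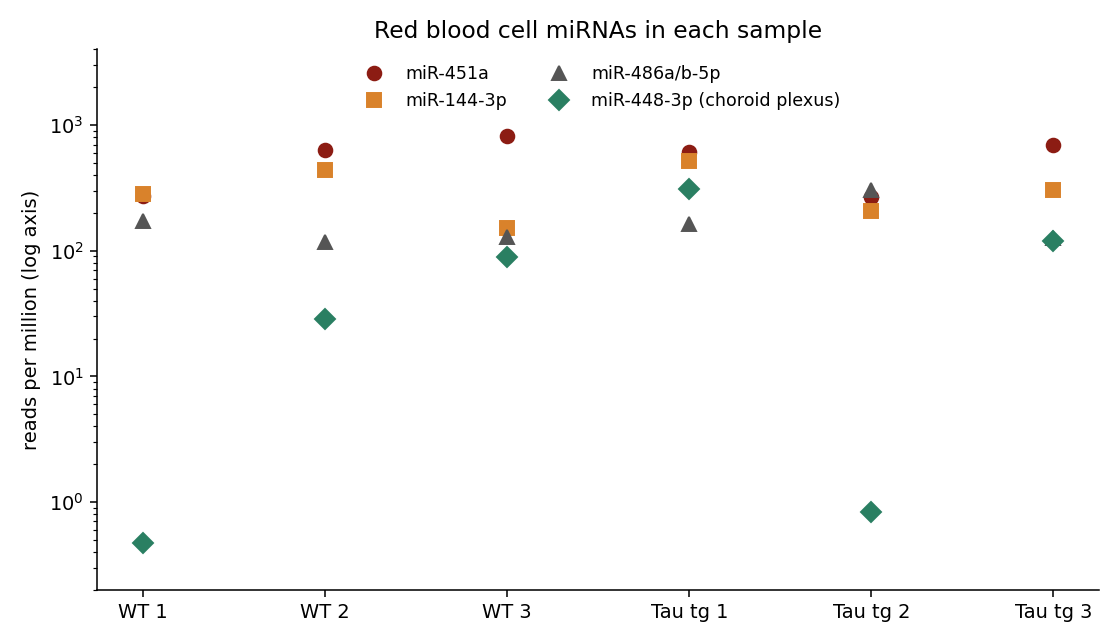
RPM (log axis) of miR-451a, miR-144-3p and miR-486a/b-5p in each sample, with the choroid plexus miRNA miR-448-3p. WT 1 and Tau tg 2 have the least miR-451a (274 and 266 RPM) and the least miR-448-3p (0.468 and 0.836 RPM), and miR-486a/b-5p is highest in Tau tg 2.

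The miRNAs whose profile over the 6 samples was most like that of miR-451a, of 475 others with a mean of at least 10 RPM, were miR-1912-5p (r = 0.96), miR-212-5p (r = 0.95) and miR-1264-5p (r = 0.95). MiR-1912-5p was at 0, 28.5 and 49.5 RPM in WT brains and at 5.41, 0 and 30.7 RPM in Tau tg. In WT 1 and Tau tg 2, miR-212-5p (0.468 and 1.67 RPM) and miR-1264-5p (0.468 and 0.836 RPM) were also below the level of 3 reads. These are the samples in which miR-448-3p was lowest too (0.468 and 0.836 RPM). The matches to miR-451a thus repeat that pattern of samples near the detection limit and are not separate evidence. For miR-126a-3p they were miR-370-3p (r = 0.99), miR-328-3p (r = 0.97) and miR-124-5p (r = 0.96). MiR-370-3p was at 350, 262 and 78.0 RPM in WT brains and at 427, 230 and 362 RPM in Tau tg. An r above 0.9 was reached by 1.68% of the 475 for miR-451a and by 2.11% for miR-126a-3p. All these values come from the same 6 libraries, so they share depth and scaling.

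Related miRNAs were read in the same way, with 0 of the 26 tested labels in 8 lists at an unadjusted p under 0.05 by limma. Among all 689 miRNAs 3.63% were, so a count of 0 in so few labels says little about these lists. Of the other arms and paralogs of the members, 4 of 8 names were in the table, at 64.2 to 89.4 RPM summed in WT brains and 64.6 to 94.3 RPM in Tau tg. The most abundant of them by the mean over all samples was miR-145a-3p, the passenger strand of miR-145a-5p, at 27.7 ± 14.4 RPM in WT brains and 31.1 ± 7.73 RPM in Tau tg. The white blood cell miRNAs, 4 of 5 in the table, summed to 1862 to 2403 RPM in WT brains and 1976 to 2768 RPM in Tau tg. Most of this was miR-150-5p, listed for lymphocytes, at 1820 ± 252 RPM in WT brains and 2060 ± 341 RPM in Tau tg. The rest of the list was far lower. MiR-142a-3p was at 266 ± 97.9 and 194 ± 50.7 RPM, and miR-142a-5p at 95.6 ± 26.4 and 82.9 ± 19.5 RPM. MiR-223-3p of neutrophils and monocytes was at 16.3 to 42.2 RPM in WT brains and 18.0 to 47.8 RPM in Tau tg. Which cells the miR-150-5p came from was not tested.

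The miRNAs that are abundant in red blood cells but found in most tissues were led by miR-16-5p, at 11417 ± 2071 RPM in WT brains and 12363 ± 1002 RPM in Tau tg, far above miR-451a. Those of mesenchymal and perivascular cells summed to 2849 to 5203 RPM in WT brains and 1669 to 5995 RPM in Tau tg. Their most abundant labels were miR-199a-3p with miR-199b-3p (1808 ± 721 and 1293 ± 769 RPM) and miR-214-3p (1758 ± 273 and 1726 ± 1326 RPM). The latter was highest in Tau tg 2 (3167 RPM) and lowest in Tau tg 1 (557 RPM). Oligodendrocyte miRNAs summed to 7657 to 13055 RPM in WT brains and 9485 to 12961 RPM in Tau tg, led by miR-219a-5p and miR-338-3p. The pituitary list, which checks the dissection, summed to 287 to 545 RPM in WT brains and 292 to 572 RPM in Tau tg. Most of this was miR-7a-5p (332 ± 140 and 313 ± 147 RPM), while miR-375-3p was at 51.5 ± 9.38 and 75.5 ± 13.9 RPM. Which cells the miR-7a-5p came from was not tested.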

How the data were processed

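Small RNA reads of Ago pulldowns from 3 WT and 3 Tau tg mouse brains were analysed. The authors trimmed the reads (Trim Galore, per the labels), ran the SPOROS pipeline, which removes rare reads and matches the rest to small RNA lists, and deposited 1 row per unique sequence in RPM, reads per 1000000. The deposited viability score of each 6mer seed is a mean of 3 mouse cell lines. Aligner settings and a genome build are not given in the sources used here. RPM were summed per miRNA label, and log2(RPM + 1) was fitted with limma 3.58.1 (trend, R 4.3.3) over labels with a mean of at least 1 RPM, with Benjamini-Hochberg adjustment. RPM steps gave whole reads for 99.98% of values (tolerance 0.1 read), which edgeR 4.0.16 and DESeq2 1.42.0 used as alternatives. Ratios, lengths and shares were tested by exact two-sided permutation over the 20 assignments of the samples. Mature sequences and hairpin positions are from RefSeq on GRCm38.p6, with GENCODE M21 for overlapping genes. All members were named, list miRNAs by abundance unless an unadjusted p was under 0.05, and for miR-126a-3p and miR-451a the 3 most alike miRNAs. Members and lists were chosen with earlier results of these data known, and the comparisons of 1 sample with the other 5, of arms over hairpins, of 5′ ends and of tails were added after the data were seen. Whether replicates are separate animals is taken from the study's methods. The fit was tested on simulated data with larger fold changes than those of the members, which gives no measure of power for changes of their size.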

Additional observations from a re-analysis of the deposited data

How the results depend on the processing

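Over 135 refits of single members under other pseudocounts, filters, scalings, tools and left-out samples, 0 brought a member past the threshold, with a smallest adjusted p of 0.675 (limma, edgeR or DESeq2), while 17 turned a sign. The replicate block left 0 members called (22 of all miRNAs at an unadjusted p under 0.05, against 25), and same-numbered samples did not deviate as pairs (correlations -0.0020, -0.069 and 0.041). Among all miRNAs, DESeq2 called 5 after adjustment. With 1 sample left out, that count was 0 to 1 and the count at an unadjusted p under 0.05 was 18 to 50, the highest without WT 1. The log2 fold change of miR-143-3p turned to -0.067 with median-of-ratios scaling, -0.019 with edgeR and -0.056 with DESeq2, and that of miR-144-5p to 0.58 with reads of the leading 5′ end only.

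With 1 sample left out, the log2 fold change ran from -0.069 (WT 3 out) to 0.79 for miR-126a-3p, from -0.15 to 0.024 (WT 1 out) for miR-126a-5p, from -0.053 (WT 2 out) to 0.31 for miR-143-3p, from -0.34 to 0.077 (Tau tg 3 out) for miR-145a-5p, from -0.57 to 0.33 (Tau tg 2 out) for miR-451a, from -0.14 (WT 3 out) to 0.63 for miR-144-3p, from 0.061 (Tau tg 2 out) to 0.70 for miR-486a/b-5p and from -0.79 to 0.44 (WT 3 out) for miR-144-5p. The log2 ratio difference ran from -0.76 to 0.0054 for miR-126a-5p to miR-126a-3p, from -1.42 to 0.58 for miR-144-5p to miR-144-3p, from -1.35 to 0.29 for miR-451a to miR-126a-3p and from -0.35 to 0.88 for miR-144-3p to miR-451a. All 4 changed sign without WT 3. The second of them was 0.39 with the leading 5′ end only. The mean length of miR-451a differed by -0.13 to 0.19 nt with 1 sample left out. The difference was -0.11 nt over reads of 19 to 30 nt and 0.17 nt over reads of the leading 5′ end only.

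Under median-of-ratios scaling the correlation of miR-126a-3p was -0.41 with miR-126a-5p and -0.14 with miR-143-3p. With that scaling miR-451a and miR-486a/b-5p gave r = -0.70 (adjusted exact permutation p = 0.463), and r = 0.32 without WT 1 and Tau tg 2. The mural pair gave r = 0.65 and rho = 0.26 with it, and r = -0.48 without its 2 farthest samples, there WT 2 and Tau tg 3. The correlation of miR-451a with miR-144-3p was -0.999 on the original scale over the 4 samples left without the 2 farthest, and -0.894 with median-of-ratios scaling. The cause of these shifts was not tested. With 3 samples a group, exact tests could not go below a p of 0.1, and RPM below 3 reads are not informative.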
